A study of Caenorhabditis elegans with 30 samples.

Results

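The fatty acid elongase genes elo-1 to elo-9 were followed across 6 genotypes of Caenorhabditis elegans. Members were chosen by gene name in the annotated expression tables, and all 9 were found among 20484 genes. Elongases catalyse the condensing step of a cycle that lengthens fatty acids at the endoplasmic reticulum. A ketoacyl-CoA reductase, a dehydratase and an enoyl-CoA reductase complete each turn of the cycle. In the worm, ELO-1 and ELO-2 act in the making of long polyunsaturated fatty acids, and ELO-2 also lengthens palmitic acid. ELO-5 and ELO-6 make monomethyl branched-chain fatty acids, which worms need for growth past the early larval stage. The other elo genes are placed in the family by sequence, and no role in the worm is given for them here.

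The samples were whole worms at late L4, the last larval stage before adulthood, from bleach-synchronised populations kept at 20 °C on OP50 bacteria. There were 6 groups with 5 replicates each. The daf-2 triple mutant carries daf-2(e1370) with both his-72(tm2066) and his-71(ok2289), and the daf-2 mutant carries daf-2(e1370) alone. The nuo-6 triple mutant carries nuo-6(qm200) with the same pair of his alleles, and the nuo-6 mutant carries nuo-6(qm200) alone. The H3.3 double mutant carries the his-72 and his-71 alleles only, and the last group is wild type (WT). The gene daf-2 encodes the insulin receptor, nuo-6 a subunit of respiratory complex I, and his-71 and his-72 encode the histone variant H3.3. Both single mutants are long-lived, and the worm has further H3.3 genes, so "without H3.3" means without his-71 and his-72. The mutations are present in all cells of the animal.

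Each deposited table gives 1 FPKM value (a fragment count scaled by transcript length and library size) per gene and genotype, called a pool here. The authors' way of combining the 5 replicates is not stated, so the spread between replicates is unknown, no difference below has a test, and neighbouring pools in an order of levels cannot be said to differ. A gene was compared between 2 pools if it reached 5 FPKM in 1 of them and was listed at 0 in neither, and it was counted as higher or lower at a ratio of at least 2. In whole worms, fewer cells of a type and less RNA per cell cannot be told apart. Sequencing depth is not given. Summed FPKM was lowest in the daf-2 triple mutant, at 935102, with 10410 to 11115 genes at 5 FPKM or more per pool. The deleted genes fitted the labels: his-71 and his-72 had at most 0.408 FPKM in the 3 pools labelled as lacking them and at least 223 FPKM in the other 3.

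Of the 9 genes, 6 lie on chromosome IV, which holds 16.3% of the genes in the tables, 2 on chromosome III and 1 on chromosome II. The authors' tables place elo-1 (WBGene00001239) at 9526359 to 9528352 on chromosome IV. Its neighbour elo-7 (WBGene00001245) is at 9529987 to 9531227. Both are on the plus strand, and the WBcel235 annotation has 1610 bases and no protein-coding gene between them. The branched-chain pair is also close: elo-5 (WBGene00001243) is listed at 5369806 to 5377275 on chromosome IV and elo-6 (WBGene00001244) at 5386627 to 5388559, both on the minus strand, with 3 protein-coding genes between them. Also on chromosome IV are elo-3 (WBGene00001241, 7237728 to 7239896, plus strand) and elo-2 (WBGene00001240, 17466060 to 17467408, minus strand). On chromosome III are elo-4 (WBGene00001242, 9332327 to 9334274) and elo-8 (WBGene00001246, 11230382 to 11232078), and on chromosome II is elo-9 (WBGene00001247, 14959376 to 14964110), all 3 on the minus strand. The tables name no build, and 3 of these 9 entries share an end with the WBcel235 annotation.

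Some values carry a limit from overlapping genes, since the counting is not stated to use strand. The listed locus of elo-5 is shared with F41H10.3 on the opposite strand, which had 24.4 FPKM in the daf-2 triple mutant, 15.8 in daf-2 and 18.0 to 19.8 in the other pools. Opposite-strand protein-coding genes also overlap elo-3 (gstk-2), elo-4 (ufc-1) and elo-7 (F56H11.2) in the annotation. Their values are not analysed here, and reads of such a pair cannot be told apart without strand.

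The polyunsaturated fatty acid elongases elo-1 and elo-2 both had their lowest level in the daf-2 triple mutant. For elo-1, the pools held 364 FPKM in the daf-2 triple mutant, 789.8 in daf-2, 787 in the nuo-6 triple mutant, 714 in nuo-6, 848 in the H3.3 double mutant and 872 in WT. All values but that of the daf-2 triple mutant lie within 714 to 872 FPKM. The elo-2 levels were 186 FPKM in the daf-2 triple mutant, 695 in daf-2, 433 in the nuo-6 triple mutant, 379 in nuo-6, 429 in the H3.3 double mutant and 434 in WT. Here daf-2 stood above the other pools and its triple mutant below them, 3.75-fold apart. The level of elo-1 was 1.14 times that of elo-2 in daf-2, against 1.82 to 2.01 times in the other pools.

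The branched-chain elongases elo-5 and elo-6 had their highest levels in daf-2. For elo-6, which lengthens the shorter branched-chain product further, the values were 648 FPKM in the daf-2 triple mutant, 2654 in daf-2, 968 in the nuo-6 triple mutant, 1244 in nuo-6, 803 in the H3.3 double mutant and 728 in WT. In the daf-2 pool elo-6 ranked 94 of the 20484 genes by FPKM, and in WT 258. The elo-5 values were 161 FPKM in the daf-2 triple mutant, 1019 in daf-2, 433 in the nuo-6 triple mutant, 452 in nuo-6, 448 in the H3.3 double mutant and 355 in WT. Both genes thus had daf-2 first, nuo-6 second, and the daf-2 triple mutant last. The level of elo-6 was 4.02 times that of elo-5 in the daf-2 triple mutant and 1.79 to 2.75 times in the other pools.

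Of the genes placed in the family by sequence, elo-3 varied least: 114 FPKM in the daf-2 triple mutant, 154 in daf-2, 179.9 in the nuo-6 triple mutant, 145 in nuo-6, 202 in the H3.3 double mutant and 165 in WT, a 1.77-fold range. The elo-9 pools held 13.03 FPKM in the daf-2 triple mutant, 24.7 in daf-2, 18.3 in the nuo-6 triple mutant, 12.6 in nuo-6, 22.5 in the H3.3 double mutant and 19.1 in WT, a 1.95-fold range. Both ranges are smaller than the ratio used to count a gene. A different order was seen for elo-4, with 52.4 FPKM in the daf-2 triple mutant, 84.9 in daf-2, 32.8 in the nuo-6 triple mutant, 26.8 in nuo-6, 38.1 in the H3.3 double mutant and 36.6 in WT. Its 2 highest pools were the 2 with the daf-2 mutation.

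The lowest and most variable members were elo-7 and elo-8. The elo-7 values were 1.36 FPKM in the daf-2 triple mutant, 0.0473 in daf-2, 2.78 in the nuo-6 triple mutant, 9.0 in nuo-6, 14.5 in the H3.3 double mutant and 7.14 in WT. It passed 5 FPKM in 3 of 6 pools, and its highest value was 305-fold its lowest. For elo-8 the pools held 2.22 FPKM in the daf-2 triple mutant, 0.274 in daf-2, 1.46 in the nuo-6 triple mutant, 23.6 in nuo-6, 5.43 in the H3.3 double mutant and 3.10 in WT, an 86.1-fold range with 2 pools above 5 FPKM. Where a value lies far under 1 FPKM, its ratio to another pool gives little more than a direction. Although elo-1 and elo-7 are neighbours on the same strand, their levels differed 58.6-fold to 16681-fold across the pools.

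**Figure D1:**
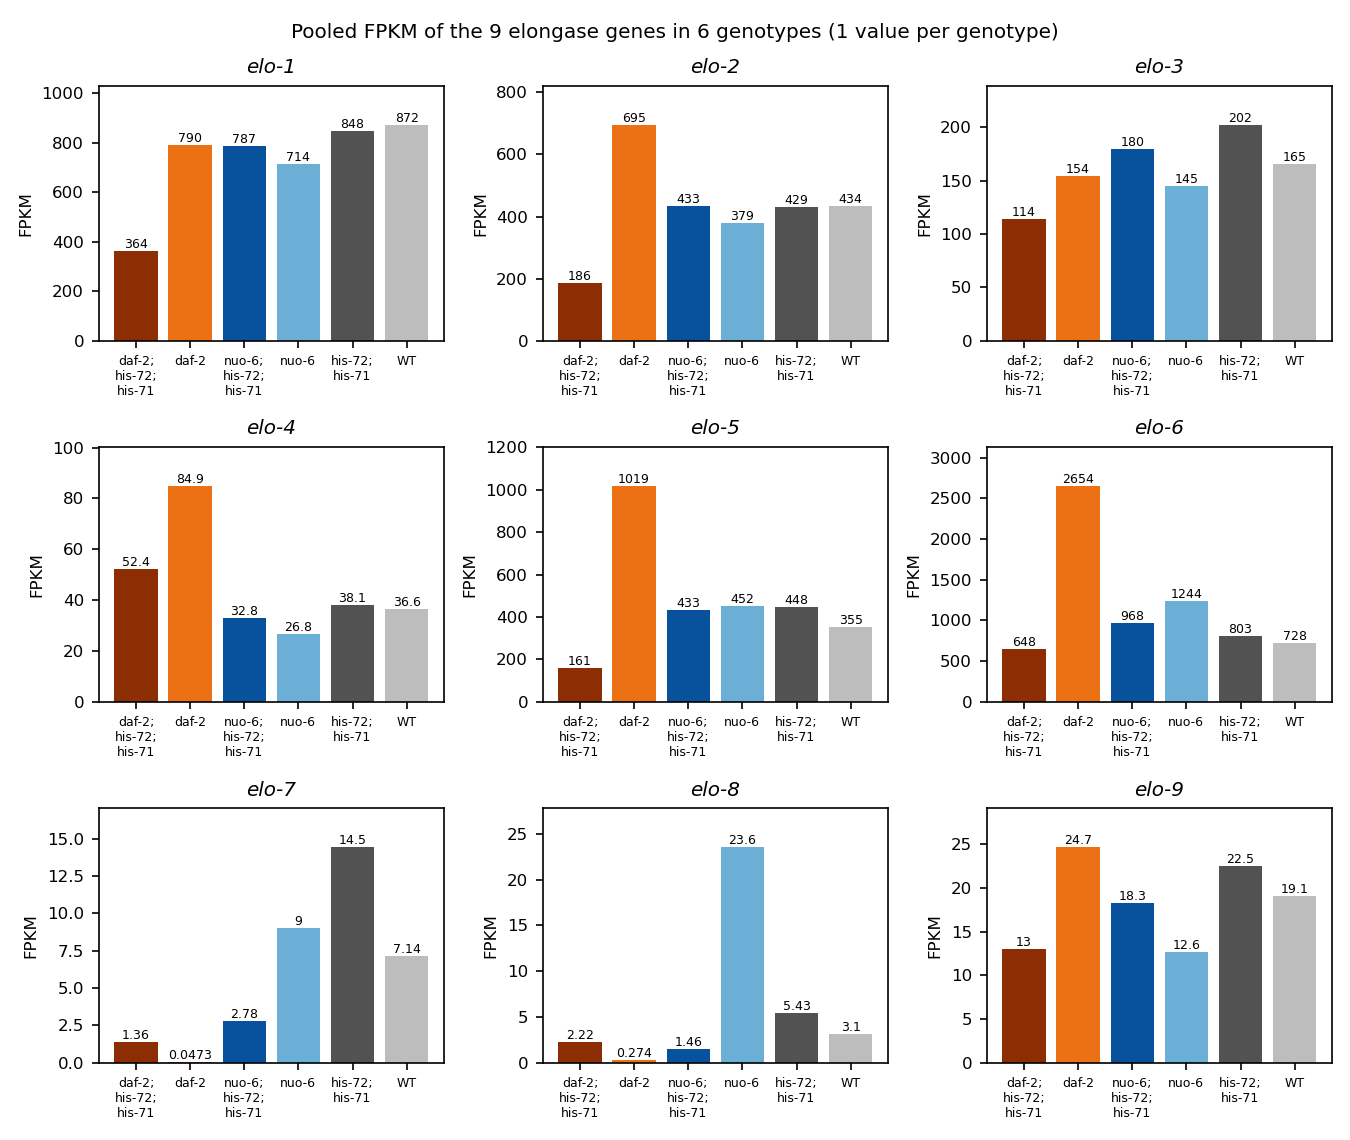
Pooled FPKM (y axis, linear, a scale of its own in each panel) of each elongase gene in the 6 genotypes (x axis, labelled with the full genotype), 1 bar per genotype with its value above it and no error bar because each table holds 1 value. The tallest bar is daf-2 for elo-2, elo-4, elo-5, elo-6 and elo-9, the H3.3 double mutant for elo-3 and elo-7, nuo-6 for elo-8 and WT for elo-1.

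Summed over the 9 genes, elongase FPKM was 1542 in the daf-2 triple mutant, 5422 in daf-2, 2855 in the nuo-6 triple mutant, 3006 in nuo-6, 2811 in the H3.3 double mutant and 2619.7 in WT. That is 0.165% of all FPKM in the daf-2 triple mutant, 0.419% in daf-2 and 0.199% to 0.242% in the other 4 pools. The branched-chain pair made up 52.5% of the family sum in the daf-2 triple mutant, 67.7% in daf-2, 49.04% in the nuo-6 triple mutant, 56.4% in nuo-6, 44.5% in the H3.3 double mutant and 41.3% in WT. The elo-1 and elo-2 pair made up 27.4% in daf-2 and 49.9% in WT. The most abundant member was elo-6 in the 4 pools with a daf-2 or nuo-6 mutation and elo-1 in the H3.3 double mutant and WT.

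**Figure D2:**
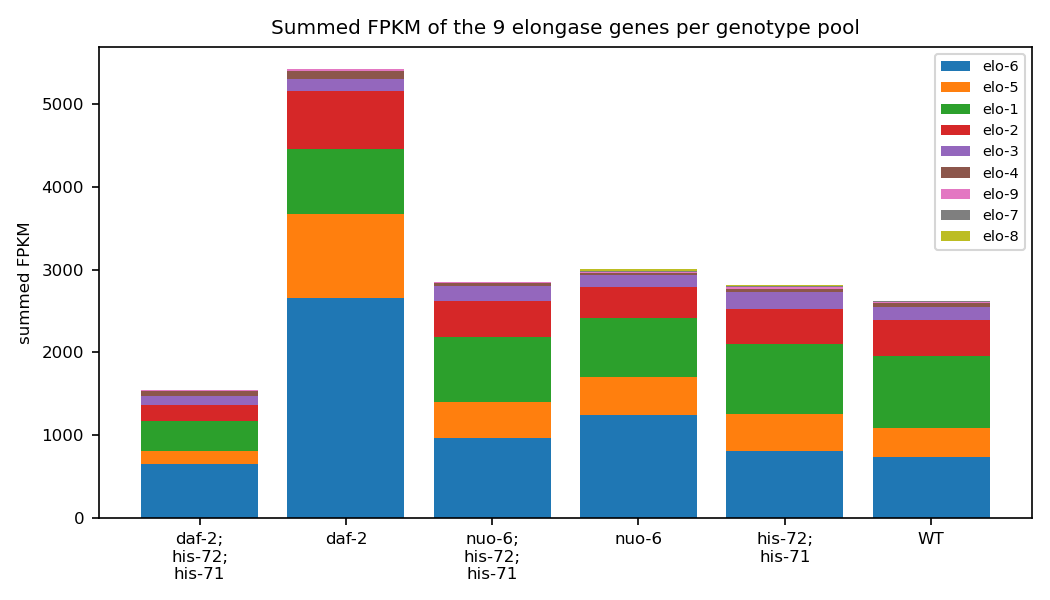
Summed FPKM of the 9 elongase genes (y axis) in each genotype pool (x axis), with 1 colour per gene and no error bars because there is 1 value per genotype. The daf-2 bar reaches 5422 FPKM and the daf-2 triple mutant bar 1542 FPKM, while the other 4 lie between 2619.7 and 3006 FPKM.

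In daf-2 against WT, 3 of 8 compared elongases were higher and 1 was lower, where 15.1% of the 11405 compared genes were higher and 13.2% lower. The branched-chain pair led: elo-6 was 3.65-fold and elo-5 2.87-fold higher in daf-2, with elo-4 at 2.32-fold. Of all compared genes, 95.1% had a smaller ratio than elo-6, 92.5% a smaller one than elo-5 and 88.6% a smaller one than elo-4. The ratio for elo-2 was 1.601, and elo-9 (1.29), elo-3 (0.932) and elo-1 (0.906) lay nearer to 1. In the other direction elo-7 was 151-fold lower, against a daf-2 value far under 1 FPKM, and elo-8, at 0.274 FPKM in daf-2 and 3.10 in WT, did not reach 5 FPKM in either pool. Of these 2 pools elo-7 reached 5 FPKM only in WT, so it could only be counted as lower. The median log2 ratio of the 8 compared members was 0.52, beside 0.01 for all compared genes. Comparisons that use WT share its pool, as do those that use the H3.3 double mutant pool, so they are not independent of each other.

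Other genes of the cycle and its supply were set beside the elongases. All 3 partner enzymes were above WT in daf-2 without reaching a ratio of 2: the ketoacyl-CoA reductase let-767 had 972 FPKM in daf-2 and 512 in WT, the dehydratase hpo-8 had 793 in daf-2 and 528 in WT, and art-1, a homologue of enoyl-CoA reductases, had 631 in daf-2 and 408 in WT. The acyl-CoA synthetase acs-1, which acts with the branched-chain fatty acids, was 3.69-fold higher (307 FPKM in daf-2 and 83.1 in WT), 1 of 3 genes of branched-chain supply that were matched by name. The other two were below WT: bcat-1, a branched-chain amino acid transaminase, had 108 FPKM in daf-2 and 147 in WT, and dld-1, a dihydrolipoamide dehydrogenase, had 201 in daf-2 and 232 in WT, and the median log2 ratio of the list was -0.20. Of 6 compared desaturases 1 was higher, the palmitate desaturase fat-5 (14.98-fold), and 1 lower, the stearate desaturase fat-7 (9.63-fold), while fat-4 was listed at 0 in daf-2. The malonyl-CoA decarboxylase gene mlcd-1 was 2.40-fold higher, 1 of 4 compared genes on the fatty acid synthesis list. Its enzyme breaks down malonyl-CoA and is not itself a synthesis enzyme. The regulators sbp-1, the worm SREBP, and scp-1, the homologue of its escort protein SCAP, were 2.26-fold and 3.35-fold higher, 2 of 9. Among 11 sphingolipid synthesis genes, whose products carry branched-chain sphingoid bases in worms, 1 was lower, the ceramide synthase hyl-1 (2.24-fold). These list counts of 1 or 2 genes stand beside 15.1% higher and 13.2% lower among all compared genes.

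The daf-2 mutation without H3.3 was read in the daf-2 triple mutant against the H3.3 double mutant. None of the 9 compared elongases was higher and 5 were lower, beside 13.2% higher and 13.5% lower among 11871 compared genes. The genes counted as lower were elo-5 (2.78-fold), elo-1 (2.33-fold), elo-2 (2.31-fold), elo-7 (10.7-fold) and elo-8 (2.45-fold). elo-7 had 1.36 FPKM in the daf-2 triple mutant and 14.5 in the H3.3 double mutant, and elo-8 had 2.22 and 5.43. Of these 2 pools both reached 5 FPKM only in the H3.3 double mutant, so they could only be counted as lower. For elo-6, elo-3 and elo-9 the ratios were 0.807, 0.565 and 0.579, and for elo-4 it was 1.38. The members' median log2 ratio was -1.21, beside -0.07 for all compared genes. Abundant transcripts as a whole were lower in this comparison: among 1602 compared genes that average at least 100 FPKM over the pools, 18.7% were lower and the median log2 ratio was -0.51. The calls of elo-1 and elo-2 were lost, with log2 ratios of -0.83 and -0.82, when each pool was scaled to the same sum, and both were also lost under scaling to reference genes.

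Elongation partners did not reach a ratio of 2 in this comparison, with let-767 at 309 FPKM in the daf-2 triple mutant and 441 in the H3.3 double mutant. Among genes of branched-chain supply, the amino acid transaminase bcat-1 was 2.22-fold lower, 1 of 3, and acs-1 had 67.9 FPKM in the daf-2 triple mutant and 89.7 in the H3.3 double mutant. The desaturase fat-5 was again higher (9.76-fold) and fat-7 again lower (5.79-fold). mlcd-1 was 2.11-fold higher, and sptl-2, a subunit of serine palmitoyltransferase, was 2.09-fold lower, 1 of 11, a call lost with equal median ratios. No regulator on the list was counted in either direction. Among all compared genes 13.2% were higher and 13.5% lower.

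Without H3.3 less with H3.3, the log2 effect of daf-2 was -2.998 for elo-5, -2.18 for elo-6, -1.89 for elo-2, -1.16 for elo-9 and -1.08 for elo-1. It was 3.82 for elo-7 and 2.21 for elo-8, both from daf-2 values under 1 FPKM. Thus 5 of 9 elongases had a difference of at least 1 downwards and 2 upwards, where 15% and 17.7% of 12241 genes did. The count downwards was 3 with equal median ratios and with pool sums and 4 with reference genes: elo-1 lay at -0.92, -0.70 and -0.93 under these scalings, and elo-9 at -0.9986, -0.78 and -1.01. Only 0.155% of these genes had a smaller difference than elo-5, and 1.04% a smaller one than elo-6. With 1 value per pool this difference could not be tested.

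**Figure D3:**
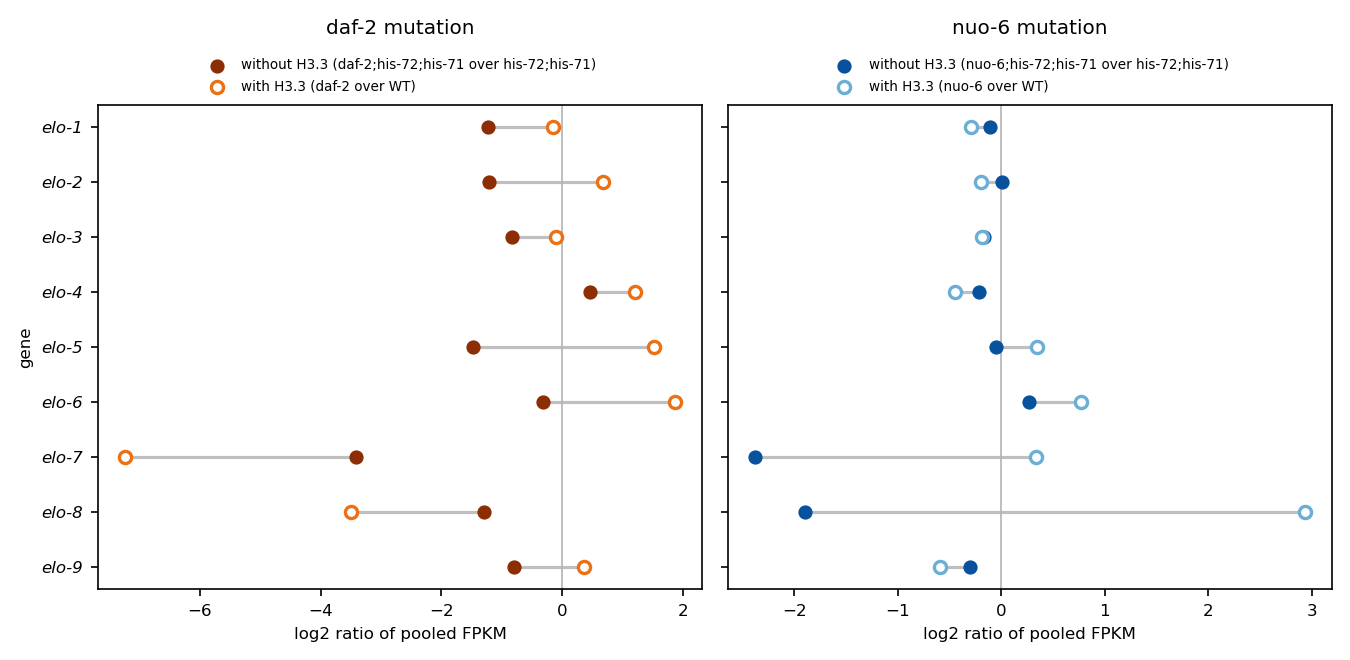
log2 ratio of pooled FPKM (x axis) for each elongase (y axis) in daf-2 worms (left) and nuo-6 worms (right), with a filled point for the effect without H3.3, an open point for the effect with H3.3 and a grey line joining them, 1 value per pool and no error. For daf-2 the filled point lies left of the open one for elo-1 to elo-6 and elo-9 (elo-5: -1.48 and 1.52) and right of it for elo-7 and elo-8, while for nuo-6 the pair lies within 0.51 of each other except for elo-7 and elo-8.

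H3.3 loss in daf-2 worms was read in the daf-2 triple mutant against daf-2, a ratio that leaves out the H3.3 double mutant and WT pools. Of 7 compared elongases 4 were lower and 0 higher, beside 12.3% lower and 17.1% higher among 11663 genes. These were elo-5 (6.32-fold), elo-6 (4.09-fold), elo-2 (3.75-fold) and elo-1 (2.17-fold). Of all compared genes 0.206% had a smaller ratio than elo-5, 0.9003% a smaller one than elo-6, 1.21% than elo-2 and 9.12% than elo-1. elo-9, elo-4 and elo-3 had ratios of 0.527, 0.617 and 0.742, so all 7 compared members were below daf-2. elo-7 (1.36 FPKM in the triple mutant and 0.0473 in daf-2) and elo-8 (2.22 FPKM in the triple mutant and 0.274 in daf-2) were under 5 FPKM in both pools and were not compared. The share of lower genes was 20.3% among 1601 compared genes that average at least 100 FPKM, with a median log2 ratio of -0.61, beside -1.12 for the compared elongases. With pools scaled to the same sum elo-1 was at -0.65, and with reference genes at -0.90, and was no longer counted.

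All 3 partner enzymes were also lower in this comparison: let-767 3.14-fold, art-1 2.90-fold and hpo-8 2.68-fold. So was acs-1, 4.52-fold, 1 of 3 genes of branched-chain supply. Among 6 compared desaturases only fat-6, a stearate desaturase, was counted as lower (2.08-fold). Of the regulators, scp-1 was 5.57-fold and sbp-1 2.42-fold lower, 2 of 9. Of 10 compared sphingolipid genes 5 were lower and 0 higher, with the serine palmitoyltransferase genes sptl-2 (2.74-fold), sptl-1 (2.39-fold) and sptl-3 (2.27-fold) and the ceramide synthase hyl-2 (2.07-fold) first. With equal median ratios 3 of the sphingolipid genes and 0 of the desaturases were lower. None of 4 compared genes on the fatty acid synthesis list was counted: the fatty acid synthase fasn-1 had 57.3 FPKM in the daf-2 triple mutant and 101 in daf-2. These list counts stand beside 12.3% lower among all compared genes and 20.3% lower among those that average at least 100 FPKM.

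Loss of H3.3 in an otherwise normal background, the H3.3 double mutant against WT, left most elongases near their WT level. Of 9 compared members, 1 was higher and 0 were lower, beside 1.14% higher and 0.902% lower among 10972 genes. This was elo-7, at 2.03-fold, which is just past the ratio of 2, and its call was lost with pools scaled to equal median ratios (log2 0.97) and with 1 FPKM added to each value (log2 0.93). elo-8 followed at a ratio of 1.75. The other 7 ratios ran from 0.973 for elo-1 to 1.26 for elo-5. No gene of the 6 pathway lists was counted in either direction. The cycle partners had ratios under 1, as in art-1 with 345 FPKM in the H3.3 double mutant and 408 in WT.

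In nuo-6 against WT 1 of 9 compared members was higher and 0 were lower, beside 20.6% higher and 5.47% lower among 11716 genes. This was elo-8, 7.61-fold higher (23.6 FPKM in nuo-6 and 3.10 in WT), above 97.3% of the compared genes. Of these 2 pools it reached 5 FPKM only in nuo-6, so it could only be counted as higher. elo-6 had a ratio of 1.71 and elo-5 one of 1.27, while elo-1, elo-2, elo-3, elo-4 and elo-9 lay between 0.662 and 0.878. The desaturase fat-7 was 13.1-fold lower, 1 of 7, and the ceramide synthase family gene lagr-1 was 8.44-fold lower, 1 of 11. No gene of the other 4 pathway lists was counted.

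Without H3.3 the same mutation, the nuo-6 triple mutant against the H3.3 double mutant, had 2 of 9 elongases lower and 0 higher, beside 6.73% lower and 5.76% higher among 11374 genes. elo-7 was 5.20-fold lower (2.78 FPKM in the nuo-6 triple mutant and 14.5 in the H3.3 double mutant). elo-8 was 3.71-fold lower (1.46 FPKM in the nuo-6 triple mutant and 5.43 in the H3.3 double mutant). Of these 2 pools both genes reached 5 FPKM only in the H3.3 double mutant, so they could only be counted as lower. The 7 other ratios lay between 0.813 for elo-9 and 1.20 for elo-6. fat-5 was 2.05-fold higher, fat-7 6.79-fold lower and scp-1 4.78-fold higher, and no other pathway gene was counted.

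H3.3 loss in nuo-6 worms, the nuo-6 triple mutant against nuo-6, had 2 of 9 elongases lower and 0 higher, beside 16.9% lower and 6.92% higher among 11900 genes. elo-8 was 16.1-fold lower (1.46 FPKM in the triple mutant and 23.6 in nuo-6) and elo-7 3.23-fold lower (2.78 FPKM in the triple mutant and 9.0 in nuo-6). Of these 2 pools both genes reached 5 FPKM only in nuo-6, so they could only be counted as lower. Ratios of the other 7 ran from 0.778 for elo-6 to 1.45 for elo-9. scp-1 was 3.01-fold and lagr-1 7.20-fold higher, and no other gene of the pathway lists was counted. The effect of nuo-6 without H3.3 less that with H3.3 was -4.82 for elo-8 and -2.71 for elo-7 on the log2 scale. It lay between -0.51 and 0.30 for the other 7 members, and 2 of 9 thus had a difference of at least 1 downwards and 0 upwards, where 19.3% and 7.19% of 12104 genes did.

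**Figure D4:**
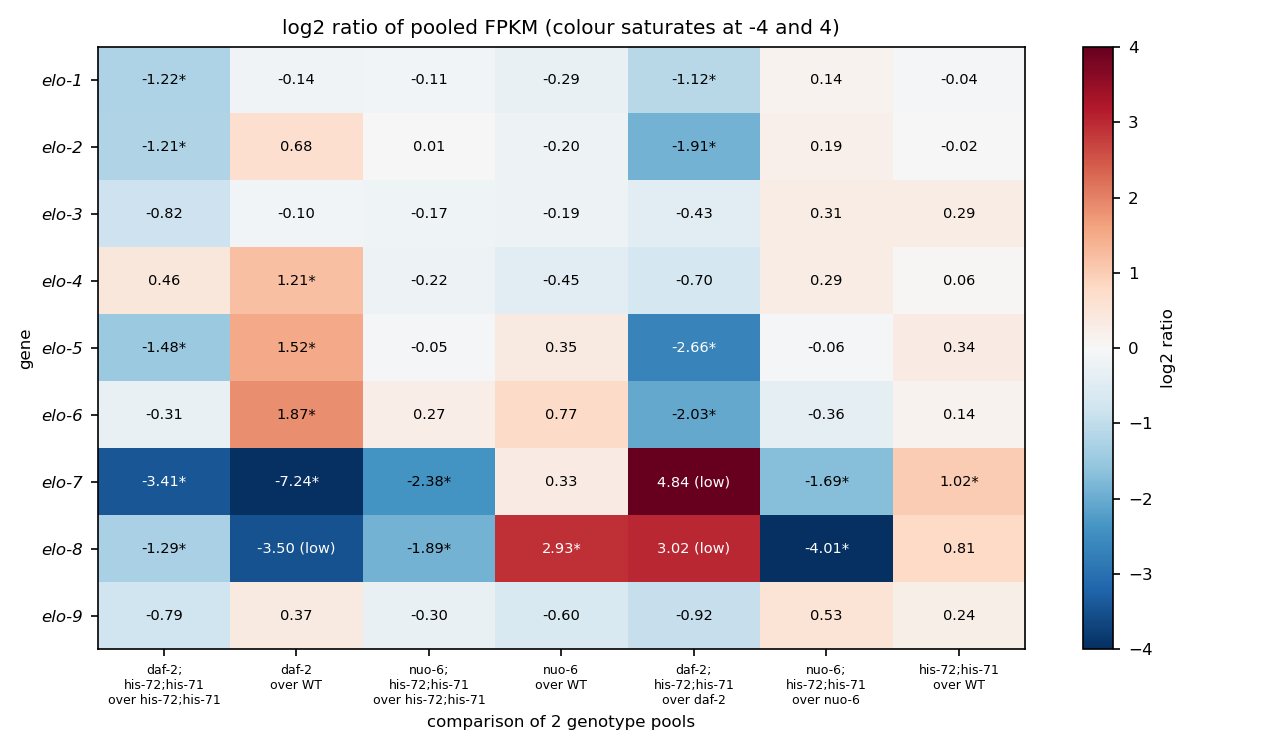
log2 ratio of pooled FPKM for 9 elongases (rows) in 7 comparisons of pools (columns), printed in each cell and shown as colour, with a star where the gene was counted as higher or lower and "low" where neither pool reached 5 FPKM. Among elo-1 to elo-6 and elo-9 the stars fall in the 3 columns with a daf-2 pool on top, and elo-7 and elo-8 carry every star of the other 4 columns.

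Whole worms mix tissues, and the markers of several tissues differed between the same pools. Among all compared genes, 13.2% were higher and 13.5% lower in the daf-2 triple mutant against the H3.3 double mutant. The shares were 17.1% higher and 12.3% lower in the triple mutant against daf-2, and 15.1% higher and 13.2% lower in daf-2 against WT. Of 8 intestine markers, 6 were lower and 0 higher in the daf-2 triple mutant against the H3.3 double mutant (median log2 ratio -1.10), beside the lower elo-1, elo-2 and elo-5. Against daf-2, the triple mutant had 3 of 8 lower. In daf-2 against WT, 1 intestine marker was higher and 1 lower (median -0.61), beside the higher elo-5 and elo-6. The higher one was the esterase gene ges-1, with 121 FPKM in daf-2 and 34.3 in WT, and the lower one the peptide transporter gene pept-1, with 49.1 in daf-2 and 137 in WT. Of the others, elt-2 had 17.3 FPKM in daf-2 and 14.95 in WT, and the remaining 5 had less FPKM in daf-2 than in WT without reaching a ratio of 2. Summed intestine marker FPKM was 1916 in the daf-2 triple mutant and 4182 to 6472 in the other pools. No intestine marker was at 0 in any pool. In the daf-2 triple mutant against the H3.3 double mutant, muscle markers were 1 of 5 lower (median -0.91), hypodermis markers 2 of 7 lower (median -0.79) and moulting cycle genes 6 of 9 lower (median -1.07). Of compared genes that average at least 100 FPKM, 18.7% were lower there. With equal median ratios, 4 intestine markers, 1 muscle marker, 1 hypodermis marker and 4 moulting cycle genes were lower in this comparison. Genes listed for adult onset, such as yolk protein genes, differed more: 9 of 10 were higher in the daf-2 triple mutant than in daf-2. These 9 were all under 5 FPKM in daf-2, so they could only be counted as higher. Against the H3.3 double mutant, 7 of the 10 were higher in the daf-2 triple mutant and 3 lower (bli-1, bli-2 and rol-6). Most of these 7 were under 5 FPKM in the H3.3 double mutant and could only be counted as higher. Summed FPKM of the list was 6588 in the daf-2 triple mutant, 199 in daf-2, 459 in the nuo-6 triple mutant, 3728 in nuo-6, 651 in the H3.3 double mutant and 834 in WT. Of these sums rol-6 alone gave 147 FPKM in the daf-2 triple mutant, 190 in daf-2, 374 in the nuo-6 triple mutant, 296 in nuo-6, 434 in the H3.3 double mutant and 417 in WT. Hypodermis markers were 2 of 7 lower and neuron markers 2 of 6 higher in daf-2 against WT. The part of tissue makeup and stage in the elongase levels was not tested.

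Sperm markers were set beside the low members by their levels, since many of them pass 5 FPKM only in the pools where they are high. Each of the 7 had its lowest FPKM in daf-2, where none exceeded 0.409, and its highest in nuo-6. Summed over the 7 sperm markers, FPKM was 26.2 in the daf-2 triple mutant, 1.001 in daf-2, 20.2 in the nuo-6 triple mutant, 182 in nuo-6, 83.8 in the H3.3 double mutant and 48.0 in WT, and none was at 0. The order of these 6 sums is that of the elo-8 levels. The elo-7 order differs from it in 2 places, since the H3.3 double mutant stood above nuo-6 and the nuo-6 triple mutant above the daf-2 triple mutant. Set beside the mean log2 profile of each marker list over the 6 pools, a comparison added after the data had been seen, sperm markers were nearest to both genes, with a root mean square difference of 0.69 for elo-7 and 1.04 for elo-8. Oocyte markers summed to 2441 FPKM in the daf-2 triple mutant and at most 402 in the other pools, a pattern that neither gene had. Germline markers were 7 of 7 lower in daf-2 than in WT and 7 of 7 higher in the daf-2 triple mutant than in daf-2. Of these, glp-1 (4.55 FPKM), him-3 (3.72) and htp-3 (3.67) were under 5 FPKM in daf-2. They could only be counted as lower in the first comparison and higher in the second. Among all compared genes, 13.2% were lower in the first comparison and 17.1% higher in the second. The part of germ cell content in the levels of elo-7 and elo-8 was not tested.

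**Figure D5:**
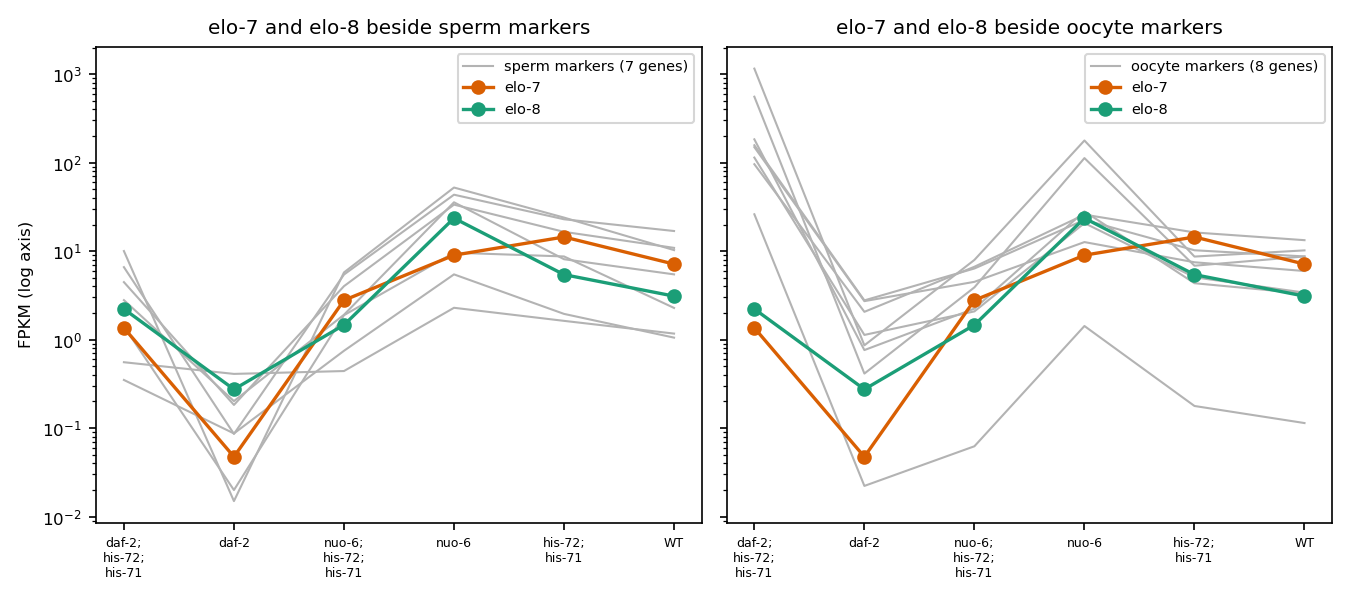
FPKM on a log axis (y) of elo-7 (orange) and elo-8 (green) in 6 genotype pools (x axis), with each of 7 sperm markers (left) and 8 oocyte markers (right) as a grey line, 1 value per pool and no error; lines join unordered genotypes to show each gene's pattern. elo-7, elo-8 and the sperm markers are all lowest in daf-2, and the oocyte markers are all highest in the daf-2 triple mutant, where elo-7 has 1.36 FPKM and elo-8 2.22 FPKM.

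For the other members the nearest of 9 lists of tissue and stage markers was the intestine list for elo-1 (0.16), the muscle list for elo-2 (0.32), elo-5 (0.59) and elo-9 (0.26), the hypodermis list for elo-3 (0.23) and the neuron list for elo-4 (0.22) and elo-6 (0.59). The muscle list was almost as near to elo-1 (0.17) and to elo-3 (0.23), so the nearest list does not assign a tissue. These distances are root mean square differences of log2 profiles centred on their own mean, over 6 pools, and describe the pools only.

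Among 12835 genes with at least 5 FPKM in 1 pool and none at 0, those with profiles most like each elongase were found by the same distance. For elo-5 they were K04G2.7 (0.15), F54F7.8 (0.23) and elo-2 (0.28), and for elo-6 the glutathione S-transferase family gene gst-42 (0.11), the bestrophin family gene best-14 (0.12) and nduo-3 (0.14), a mitochondrially encoded subunit of complex I that shares its listed locus with another gene. The neighbours elo-5 and elo-6 were 0.37 apart. For elo-2 they were F09B12.3 (0.06), Y54F10AM.8 (0.09) and hpd-1 (0.12), an enzyme of tyrosine breakdown, and for elo-1 C50F2.4 (0.05), which shares its listed locus with another gene, the innexin inx-12 (0.06) and C15F1.2 (0.06). The profile of elo-4 was closest to F28C1.3 (0.07), abts-4 (0.09) and the transcription factor gene mdl-1 (0.09). For elo-3 the closest were Y73B3A.10 (0.05), the translation initiation factor eif-3.F (0.06) and Y73B3A.9 (0.07), and for elo-9 sto-5 (0.04), R11G1.6 (0.07) and unc-29 (0.07), an acetylcholine receptor subunit. The low members had looser matches: ant-1.4 (0.29), Y69E1A.8 (0.31) and F27C8.5 (0.33) for elo-7, and K01D12.15 (0.21), C10H11.7 (0.22) and F41G3.5 (0.23) for elo-8. The neighbours elo-1 and elo-7 were 2.72 apart.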

How the data were processed

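The authors deposited FPKM values in 6 tables, 1 per genotype, each with 1 value for each of 20484 genes. Per the labels, the 5 replicates of each genotype share its table. Tools listed in the submitters' processing notes are STAR, FastQC, Cuffdiff and Cufflinks, with no version. The genome build, strandedness and depth are not given in the sources used here.

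The deposited values entered without rescaling or a pseudocount, and ratios were taken in 7 comparisons with Python 3.11.15 and pandas 2.3.3. No test was possible. Listed starts count from 0 (5754 lie 1 below the WBcel235 annotation, 391 equal it), so 1 was added. A 0 can be a gene that was not quantified: 36 genes listed at 0 in a pool had at least 20 FPKM in another, and no elongase value was 0. Of 116 genes on 16 other lists, 112 were found by the listed name. bckd-1A, bckd-1B, dbt-1 (all of branched-chain supply) and trp-3 were not matched by name, which does not show them to be absent, and were not analysed here.

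The members and lists were chosen with earlier results of these data known. Named were the 9 elongases, up to 4 counted genes per pathway list and comparison, up to 3 markers per list, and the 3 nearest profiles per elongase. Calls and scaling were checked on simulated data. The alternatives varied the ratio (1.5, 3), the minimum FPKM (1, 20), the scaling (equal median ratios, pool sum, 7 reference genes of quantitative PCR), a pseudocount of 1, and genes that share a locus. The profiles of marker lists, the background of abundant genes and the rescaled differences of effects were added after the data had been seen.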

Additional observations from a re-analysis of the deposited data

Results flagged for a closer look

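elo-5, elo-7 and elo-8 were counted in opposite directions under the same change in different backgrounds. The difference was not tested, since each background has 1 pooled value per genotype. Both calls of elo-8 were fixed in direction by the minimum of 5 FPKM, which it reached only in nuo-6 and in the H3.3 double mutant. The elo-7 call in the nuo-6 triple mutant over nuo-6 was likewise fixed, since of those pools only nuo-6 reached 5 FPKM. For elo-5 the log2 ratio of the daf-2 mutation was -1.48 in the daf-2 triple mutant over the H3.3 double mutant and 1.52 in daf-2 over WT. For elo-8 that of the nuo-6 mutation was -1.89 in the nuo-6 triple mutant over the H3.3 double mutant and 2.93 in nuo-6 over WT, and summed sperm markers went the same way (20.2 FPKM in the nuo-6 triple mutant and 83.8 in the H3.3 double mutant, 182 in nuo-6 and 48.0 in WT). So did summed oocyte markers (33.8 and 59.1 FPKM, 402 and 53.7, with the pools in the same order). Adult onset genes (459 and 651, 3728 and 834) and germline markers (206 and 444, 465 and 376) did too. No germline marker was counted in either direction in nuo-6 over WT (median log2 ratio 0.23). Of the adult onset sums of 459 and 651, rol-6 alone gave 374 and 434 FPKM, and it was lower in nuo-6 (296) than in WT (417). For elo-7 the log2 ratio of H3.3 loss was -1.69 in the nuo-6 triple mutant over nuo-6 and 1.02 in the H3.3 double mutant over WT, the second just past the ratio of 2.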

How the results depend on the processing

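No paired analysis was possible because the tables hold 1 value per genotype, and for the same reason no replicate could be left out. Of 159 recalculations of the 19 counted elongase ratios, 142 kept the call, 17 lost it and 0 changed sign. Only the scalings could change a sign. A ratio of 1.5, a minimum of 1 or 20 FPKM and leaving out genes that share a locus could not lose a recalculated call. These settings gave 19, 19, 12 and 16 of the kept calls. The call was kept for 18 with equal median ratios, 16 with reference genes and 14 with pool sums, and calls of genes left out or under the minimum were not recalculated. Counts that changed by more than 1.5 times are given first. With a ratio of 1.5, 2 were higher in the H3.3 double mutant over WT, and in nuo-6 over WT 2 were higher and 1 lower. With a ratio of 3, 0 were higher in the H3.3 double mutant over WT, 1 higher in daf-2 over WT and 1 lower in the daf-2 triple mutant over the H3.3 double mutant. With a minimum of 1 FPKM, 2 were higher in the daf-2 triple mutant over daf-2 (elo-7 and elo-8) and 2 lower in daf-2 over WT. With a minimum of 20 FPKM, 0 were higher in the H3.3 double mutant over WT, 0 lower in daf-2 over WT, 1 lower in the nuo-6 triple mutant over nuo-6, and 3 and 0 lower in the daf-2 and nuo-6 triple mutants over the H3.3 double mutant. In those 2 comparisons pool sums left 2 and 1 lower, and reference genes left 3 lower in the first. Equal median ratios and the pseudocount each left 0 higher in the H3.3 double mutant over WT. For the difference of daf-2 effects, equal median ratios left 3 downwards, and pool sums 3 downwards and 1 upwards, since elo-8 was then under the minimum. Smaller changes in the daf-2 comparisons were 6 lower in the daf-2 triple mutant over daf-2, 7 lower over the H3.3 double mutant and 4 higher in daf-2 over WT with a ratio of 1.5. In the daf-2 triple mutant over daf-2, 3 were lower with a ratio of 3, pool sums, reference genes or without genes that share a locus. Without such genes 2 were higher in daf-2 over WT and 4 lower in the daf-2 triple mutant over the H3.3 double mutant, as were 4 with the pseudocount. Scaling to the pool sum changed the median log2 ratio of all compared genes to 0.36 in the daf-2 triple mutant over daf-2, against -0.15 as deposited, and the split of all genes to 3148 higher and 383 lower, against 1991 and 1435. The split became 2538 and 731 in the daf-2 triple mutant over the H3.3 double mutant (1563 and 1604 as deposited), 1534 and 1209 in the nuo-6 triple mutant over nuo-6 (824 and 2014), 1688 and 935 in nuo-6 over WT (2416 and 641) and 153 and 73 in the H3.3 double mutant over WT (125 and 99). With reference genes the first 2 became 2519 and 784, and 2135 and 1049, and the last 168 and 80. With equal median ratios the second became 1876 and 1264. The cause of these changes was not tested. Sequencing depth is not given, so no limit from depth was measured.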
